A study of Homo sapiens with 3 samples.

Results

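Expression of 8 genes for S100 proteins and annexins was followed in 3 single-cell RNA-seq libraries of prostate cancer cell lines. The genes were S100A10, S100A11, S100A6, S100A4, ANXA2, ANXA1, ANXA3 and ANXA5. They were taken by symbol from the 33423 genes listed in the count files, and a gene with no row in a file was counted as 0. The set was chosen by its levels and detection in these 3 libraries, so those levels, their ratios and the shares of cells are a description and carry no test. Unique molecular identifiers (UMIs), each marking 1 captured mRNA molecule, were found for 6 of the 8 genes in LNCaP–ENZ168 and for all 8 in VCaP parental and VCaP–ENZ48.

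The libraries were made by Drop-seq, which captures single cells in droplets with barcoded beads and primes mRNA at its 3′ end. LNCaP and VCaP are lines grown from metastases of prostate cancer, and both were labelled sensitive to enzalutamide (ENZ), an oral drug used in advanced disease. LNCaP–ENZ168 held LNCaP cells exposed to 10 µM ENZ for 168 h, VCaP–ENZ48 held VCaP cells exposed to 10 µM ENZ for 48 h, and VCaP parental held VCaP cells given the 0.1% DMSO vehicle for 48 h. LNCaP was grown in RPMI medium and VCaP in DMEM, both with serum. There was 1 library per group, so intervals cover counting error only, no difference has a replicate check, and between LNCaP–ENZ168 and the VCaP libraries the effects of line, medium, ENZ exposure and preparation cannot be told apart.

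S100 proteins are small calcium-binding proteins with EF-hand motifs that change shape with calcium and then bind other proteins. Annexins bind negatively charged phospholipids in the presence of calcium and take part in membrane traffic, membrane repair and the link between membranes and actin. Members of both families work in pairs: S100A10, which no longer binds calcium, forms a complex with ANXA2 at the plasma membrane that captures plasminogen, and S100A11 binds ANXA1. In normal prostate, ANXA1 and ANXA2 are known from epithelium and are often low in carcinoma.

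The genes lie on 4 chromosomes (GRCh38, Gencode 44). S100A10 (chr1:151982915-151993859) and S100A11 (chr1:152032506-152047907) are neighbours on the minus strand, and S100A6 (chr1:153534599-153536244) and S100A4 (chr1:153543613-153550136) lie further along chromosome 1 in the cluster of S100 genes. ANXA2 is at chr15:60347134-60402883 and ANXA1 at chr9:73151865-73170393, while ANXA3 (chr4:78551747-78610451) and ANXA5 (chr4:121667946-121696995) share chromosome 4.

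The 250 bases upstream of the RefSeq start are shown for 4 genes, because the first 3 were near 0 in LNCaP–ENZ168 and present in VCaP, and ANXA5 was the gene with the opposite order. They are written 5′ to 3′ on the gene's strand from GRCh38.p14, with CG dinucleotides in capitals. The windows are chr1:151993860-151994109 (minus strand) for S100A10, chr15:60397987-60398236 (minus) for ANXA2, chr9:73151615-73151864 (plus) for ANXA1 and chr4:121696981-121697230 (minus) for ANXA5. The ANXA2 window lies inside the Gencode gene, which has a start further upstream.
S100A10: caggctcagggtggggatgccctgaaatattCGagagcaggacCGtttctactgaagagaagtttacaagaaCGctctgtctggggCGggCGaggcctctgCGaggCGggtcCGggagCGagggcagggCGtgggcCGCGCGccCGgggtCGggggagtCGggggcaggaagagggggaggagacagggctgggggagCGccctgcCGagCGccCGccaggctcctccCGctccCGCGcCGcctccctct
ANXA2: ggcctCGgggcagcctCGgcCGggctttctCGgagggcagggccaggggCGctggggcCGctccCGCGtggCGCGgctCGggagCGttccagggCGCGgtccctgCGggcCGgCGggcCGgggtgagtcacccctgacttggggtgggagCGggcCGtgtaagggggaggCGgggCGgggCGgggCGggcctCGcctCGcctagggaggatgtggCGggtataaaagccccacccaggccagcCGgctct
ANXA1: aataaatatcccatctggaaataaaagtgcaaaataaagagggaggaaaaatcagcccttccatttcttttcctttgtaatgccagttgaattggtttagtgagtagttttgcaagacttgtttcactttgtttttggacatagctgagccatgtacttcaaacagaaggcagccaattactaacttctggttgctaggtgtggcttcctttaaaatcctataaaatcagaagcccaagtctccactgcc
ANXA5: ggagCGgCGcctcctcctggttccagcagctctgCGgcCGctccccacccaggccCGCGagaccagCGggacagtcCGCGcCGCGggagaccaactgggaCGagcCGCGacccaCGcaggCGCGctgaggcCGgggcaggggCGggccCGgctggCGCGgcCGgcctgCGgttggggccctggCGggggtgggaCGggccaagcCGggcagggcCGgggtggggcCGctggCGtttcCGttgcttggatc

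The windows fell apart by their CG content. That of S100A10 held 24 CG dinucleotides, that of ANXA2 28 and that of ANXA5 31, whereas that of ANXA1 held 0. Over 35116 RefSeq promoter windows of the same length the median was 11, and 93.9% held at least 1. As many as 31 were held by 10.9% of windows, as many as 28 by 15.9% and as many as 24 by 23.7%. The windows of S100A6, ANXA3, S100A11 and S100A4, not printed, held 24, 18, 15 and 7. CG-rich windows were thus those of S100A10, S100A6, ANXA2 and ANXA5. Whether CG content bears on the levels was not tested.

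GGGCGG and TGANTCA were searched on both strands of the same windows. GGGCGG (the GC box, which contains a CG) was found in 42.6% of all windows, 3 times each in those of ANXA2 and S100A6, once each in those of S100A10, S100A11 and ANXA5, and not in the other windows. TGANTCA (the AP-1 site) was found in 6.57% of all windows and, among the 8, once in that of ANXA2. A match is a description of letters and not of binding.

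After filtering, LNCaP–ENZ168 kept 944 cells, VCaP parental 997 and VCaP–ENZ48 947, with 6313283, 19515202 and 14301287 UMIs and medians of 5389, 17817 and 11224 UMIs per cell. Because depth differed, levels are given as CPM (UMIs scaled to a common library total), and shares of cells with a UMI after each cell was thinned to 2000 UMIs, which left out 1, 0 and 30 shallower cells. A barcode ending in N, which marks beads of uncertain last base, made up 212 of 1000 barcodes in LNCaP–ENZ168, 860 in VCaP parental and 869 in VCaP–ENZ48. Each pair of files shared 1 barcode, and no kept cells shared one. The labels were checked on luminal epithelial markers, of which KRT8, KRT18 and EPCAM were each at 50 CPM or more in every library, and on ERG, carried by VCaP in a fusion, which had 0 CPM in LNCaP–ENZ168, 105 in VCaP parental and 57.1 in VCaP–ENZ48. Markers of basal epithelium summed to 0.634, 1.28 and 0.699 CPM, and those of leukocytes to 0.158, 0.256 and 0.280 CPM, in that order. Fibroblast and smooth muscle markers summed to 10.3, 22.1 and 27.4 CPM, of which LUM held most in VCaP, and endothelial markers to 2.06, 0.256 and 0 CPM.

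S100A10 was abundant in VCaP and almost undetected in LNCaP–ENZ168. Its level was 800.04 CPM (15613 UMIs, 95% Poisson interval 787.5 to 812.7) in VCaP parental, and it reached 1206 CPM (1188 to 1224, 17243 UMIs) in VCaP–ENZ48. In LNCaP–ENZ168 it was 1.11 CPM (0.446 to 2.28), from 7 UMIs in 7 cells. LNCaP–ENZ168 cells were also the shallowest, with a median of 5389 UMIs, which lowers raw counts and unthinned shares there. A cell without a UMI may still hold the transcript. Before thinning, 996 of 997 VCaP parental cells and 927 of 947 VCaP–ENZ48 cells had at least 1 S100A10 UMI, and the 20 VCaP–ENZ48 cells without it had a median depth of 2415 UMIs against 11494 for the others. After thinning, the share was 79.3% in VCaP parental, 86.8% in VCaP–ENZ48 and 0.212% in LNCaP–ENZ168.

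ANXA2, the annexin partner of S100A10, followed the same order at lower counts. It had 48.1 CPM (45.0 to 51.2, 938 UMIs) in VCaP parental, 52.9 CPM (49.2 to 56.8, 756 UMIs) in VCaP–ENZ48 and a single UMI in LNCaP–ENZ168, or 0.158 CPM (0.00401 to 0.883). The thinned shares of cells were 7.92%, 10.4% and 0.106%. Reads of ANXA2 can be shared with its processed pseudogenes, so its values are uncertain to that extent. The rows of ANXA2P1, ANXA2P2 and ANXA2P3 summed to 0.461 CPM in VCaP parental, 1.47 in VCaP–ENZ48 and 0 in LNCaP–ENZ168.

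S100A11 and its partner ANXA1 were also higher in both VCaP libraries, but they differed in how far they went down in LNCaP–ENZ168. S100A11 had 154 CPM (149 to 160, 3005 UMIs) in VCaP parental, 165 CPM (158 to 172, 2358 UMIs) in VCaP–ENZ48 and 53.5 CPM (48.0 to 59.6, 338 UMIs) in LNCaP–ENZ168. ANXA1, a glucocorticoid-induced protein that limits inflammation, had 43.97 CPM (41.1 to 47.0, 858 UMIs), 43.1 CPM (39.7 to 46.6, 616 UMIs) and 1.58 CPM (0.760 to 2.91, 10 UMIs) in the same order. S100A11 was thus readily measured in LNCaP–ENZ168, with a UMI in 9.23% of thinned cells against 26.8% in VCaP parental and 26.1% in VCaP–ENZ48. The shares for ANXA1 were 0.318%, 7.32% and 8.94%, and its 10 LNCaP–ENZ168 UMIs lay in 8 cells.

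**Figure D1:**
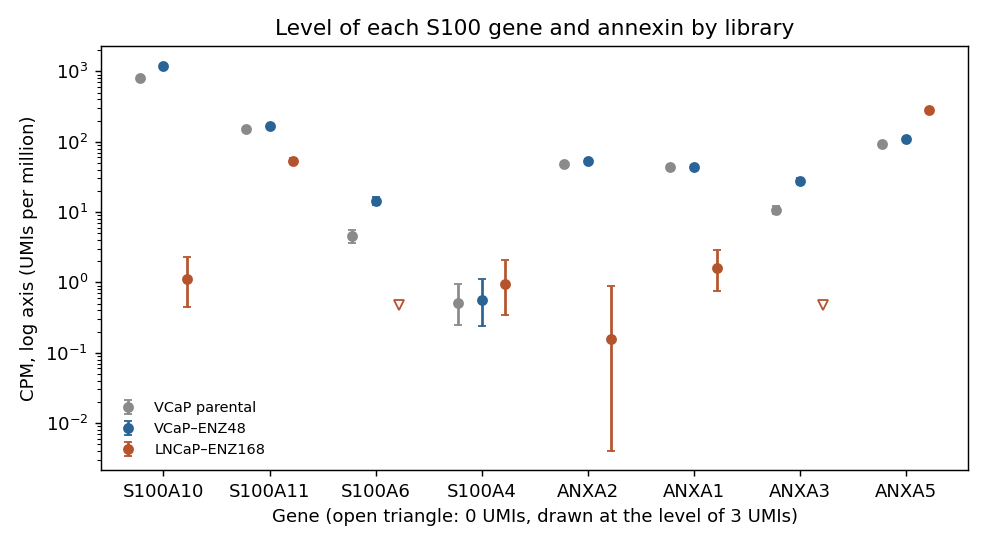
Level of each gene by library in CPM on a log axis, with 95% Poisson intervals as bars and 0 UMIs drawn as an open triangle at the level of 3 UMIs. S100A10 lies at 800.04 and 1206 CPM in the VCaP libraries and at 1.11 CPM in LNCaP–ENZ168, and ANXA5 lies highest in LNCaP–ENZ168 at 279.7 CPM.

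S100A6 and ANXA3 were detected in VCaP and had no UMI in LNCaP–ENZ168. S100A6, also called calcyclin, had 4.51 CPM (3.62 to 5.56, 88 UMIs) in VCaP parental and 14.4 CPM (12.5 to 16.5, 206 UMIs) in VCaP–ENZ48. ANXA3 had 10.7 CPM (9.31 to 12.3, 209 UMIs) and 27.9 CPM (25.2 to 30.8, 399 UMIs). In LNCaP–ENZ168 each gene had 0 UMIs, which allows up to 0.475 CPM, and 0 of 944 cells, which allows up to 0.318% of cells with a UMI. The thinned share of S100A6 was 0.702% in VCaP parental and 2.73% in VCaP–ENZ48, and that of ANXA3 was 1.505% and 7.74%.

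S100A4, known for its link with metastasis and as a partner of non-muscle myosin, was near the limit of detection everywhere. It had 10 UMIs in VCaP parental, 8 in VCaP–ENZ48 and 6 in LNCaP–ENZ168, or 0.512, 0.559 and 0.950 CPM. The thinned shares of 0.201%, 0.327% and 0.212% were like the 0.212% of S100A10 in LNCaP–ENZ168, and no difference could be read at this depth.

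ANXA5, the phosphatidylserine-binding annexin used as a stain for dying cells, had the opposite order. It had 279.7 CPM (266.8 to 293.1, 1766 UMIs) in LNCaP–ENZ168, 92.6 CPM (88.4 to 97.0, 1808 UMIs) in VCaP parental and 108.9 CPM (103.5 to 114.4, 1557 UMIs) in VCaP–ENZ48. A UMI was found in 41.3% of thinned LNCaP–ENZ168 cells (95% exact binomial interval 38.1 to 44.5%), 17.2% of VCaP parental cells (14.9 to 19.6%) and 19.0% of VCaP–ENZ48 cells (16.5 to 21.7%). Unthinned, the shares were 74.7%, 72.9% and 61.0%, at median depths of 5389, 17817 and 11224 UMIs.

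**Figure D2:**
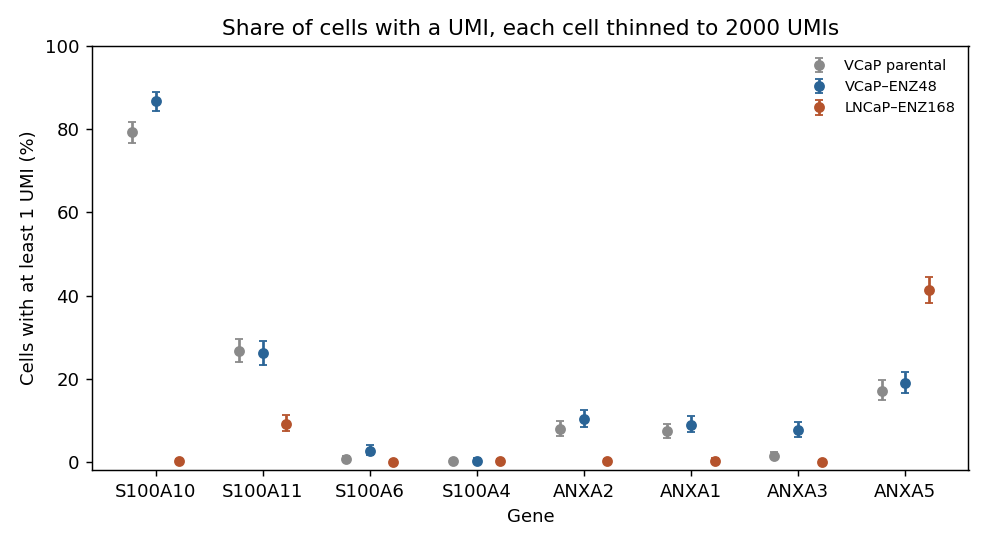
Share of cells (%) with at least 1 UMI of each gene after thinning to 2000 UMIs per cell, with exact binomial 95% intervals as bars. S100A10 was found in 79.3% and 86.8% of VCaP parental and VCaP–ENZ48 cells and in 0.212% of LNCaP–ENZ168 cells, while ANXA5 was found in 41.3% of LNCaP–ENZ168 cells.

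Shares of cells with a UMI can include free RNA taken up by droplets. Each library held 1 line, so no second cell type gave a background within it. Across libraries, S100A10 was found in 0.742% of unthinned LNCaP–ENZ168 cells (median depth 5389 UMIs) against 99.9% in VCaP parental (17817 UMIs). Each of those 7 LNCaP–ENZ168 cells held 1 UMI. As that library held no cells rich in S100A10, its share is no measure of free S100A10 RNA in VCaP, which was not tested.

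The VCaP libraries were compared to ask how the genes stood after 48 h of ENZ. S100A6, at 3.19-fold (2.48 to 4.15), and ANXA3, at 2.61-fold (2.20 to 3.09), were at least 2-fold higher in VCaP–ENZ48 than in VCaP parental, and 0 of the 8 genes were 2-fold lower. Over all 7729 genes whose mean was 10 CPM or more, 8.19% were 2-fold higher and 6.77% 2-fold lower, shares that became 5.75% and 12.6% with TMM scaling. Of the 8 genes, 6 were among those 7729, and ANXA3 was the 1 of them past 2-fold, since the mean of S100A6 was 9.46 CPM. These contrasts were known when the genes were chosen, so nothing is read from their count against this background. The median log2 ratio of CPM + 1 was 0.18 over the 8 genes and −0.07 over all genes.

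S100A10 was 1.51-fold higher in VCaP–ENZ48 (1.47 to 1.54), a log2 ratio of 0.59, and stayed between 0.30 and 0.73 under every setting tried. ANXA3 and S100A6 also kept their direction under every setting, but each dropped under 2-fold with a pseudocount of 10 CPM (0.87 and 0.75). With barcodes ending in a base only, 138 VCaP parental and 127 VCaP–ENZ48 cells, ANXA3 fell to 0.84 and S100A6 stood at 1.21. The cause of this difference between barcodes was not tested.

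The other genes lay close to the ratio of the average gene. S100A11 had a log2 ratio of 0.10 (0.02 to 0.18) and ANXA2 of 0.13 (−0.00 to 0.28), and both turned negative with TMM scaling (−0.19 and −0.15) and with median-of-ratios scaling (−0.13 and −0.09). ANXA5 had 0.23 (0.13 to 0.33), which became −0.06 with TMM scaling. ANXA1 had −0.03 (−0.18 to 0.12), which became positive without mitochondrial and ribosomal protein genes in the total (0.10), with barcodes ending in a base (0.11) and with equal weight of cells (0.02). S100A4 had 0.04 with an interval of −1.42 to 1.62, and it turned negative with TMM scaling (−0.06), with median-of-ratios scaling (−0.04) and with barcodes ending in a base (−0.39). Intervals are those of the ratio of CPM without the pseudocount. TMM and median-of-ratios scaling moved the median of all genes by −0.27 and −0.21, and the total without mitochondrial and ribosomal protein genes moved it by 0.18.

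Transcripts of the cell cycle were fewer per cell in VCaP–ENZ48, so the comparison was repeated among cells with few of them. Over 97 genes of the S and G2M phases, the median thinned cell had 23 UMIs in VCaP parental, 4 in VCaP–ENZ48 and 7 in LNCaP–ENZ168. Cells with at most 8 such UMIs, the lower quartile of VCaP parental, numbered 281 (28.2%), 826 (90.1%) and 612 (64.9%). Among them S100A10 remained higher in VCaP–ENZ48, with a log2 ratio of 0.51 (0.46 to 0.56) against 0.59 over all cells. ANXA5 stood at 0.47 (0.31 to 0.65) and ANXA2 at 0.29 (0.06 to 0.53). S100A6 had 4.86 CPM in VCaP parental and 15.6 CPM in VCaP–ENZ48 (log2 interval 1.06 to 2.36), while ANXA3 was 0.92 (0.60 to 1.34) and S100A11 −0.00 (−0.12 to 0.12). In these cells 7.04% of 7628 genes were 2-fold higher and 3.03% were 2-fold lower, and the median of all genes was −0.08.

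**Figure D3:**
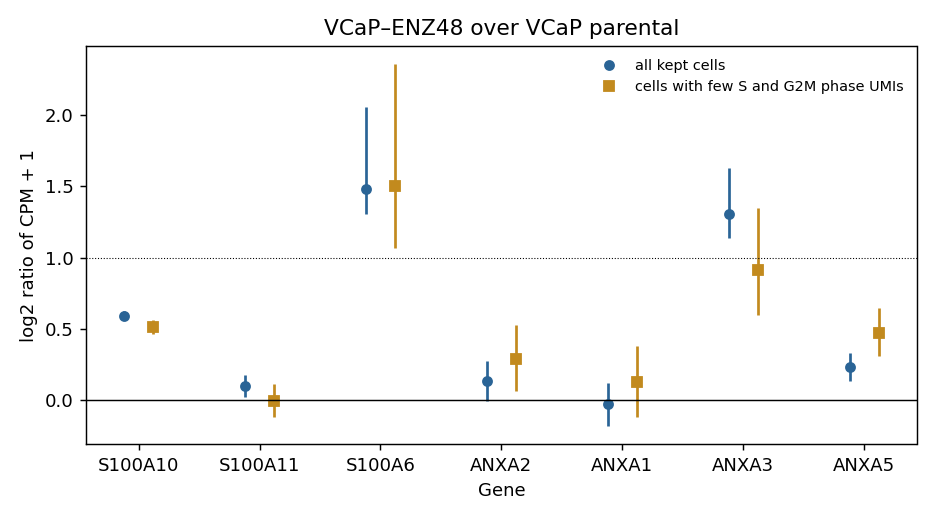
Log2 ratio of CPM + 1, VCaP–ENZ48 over VCaP parental, for all kept cells (circles) and for cells with few S and G2M phase UMIs (squares), with 95% counting intervals and a dotted line at 2-fold. S100A6 lies above the line in both (1.48 over all kept cells), ANXA3 moves from 1.30 to 0.92 and S100A10 from 0.59 to 0.51, while S100A11, ANXA2 and ANXA5 change sign with TMM scaling in all kept cells and ANXA1 lies at −0.03, positive with some settings.

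Within VCaP parental, cells were split at the library's median of S and G2M phase UMIs. ANXA2 had 57.9 CPM in the 487 cells above it and 38.0 CPM in the 510 at or under it (log2 ratio 0.60, 0.42 to 0.80), ANXA1 had 51.1 and 36.6 CPM (0.47, 0.28 to 0.68), and ANXA5 had 104 and 80.7 CPM (0.37, 0.23 to 0.51). S100A10 went the other way, with 750.8 and 850.5 CPM (−0.18, −0.23 to −0.13), and so did ANXA3, with 8.91 and 12.6 CPM (−0.45, −0.91 to −0.09). The partners S100A10 and ANXA2 thus stood on opposite sides of the split. Cells of 1 library are not replicates, and median depth was 18354 UMIs above and 17124 at or under the median.

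The ratios of these genes were smaller in size in VCaP–ENZ48, where 334 cells lay above the median and 583 at or under it. That median was 4 S and G2M phase UMIs against 23 in VCaP parental. The libraries were thus split at unlike levels, and the ratios are not a like comparison between them. ANXA2 had 57.3 and 50.4 CPM (0.18, −0.03 to 0.40), ANXA1 41.0 and 44.1 CPM (−0.11, −0.36 to 0.14) and ANXA5 115.6 and 105 CPM (0.13, −0.02 to 0.28). S100A10 had 1162 and 1231 CPM (−0.08, −0.13 to −0.04). The difference between the libraries was not tested. In LNCaP–ENZ168 the ratio was −0.03 (−0.17 to 0.10) for ANXA5 and −0.14 (−0.46 to 0.18) for S100A11, and all 10 ANXA1 UMIs lay in cells at or under the median.

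**Figure D4:**
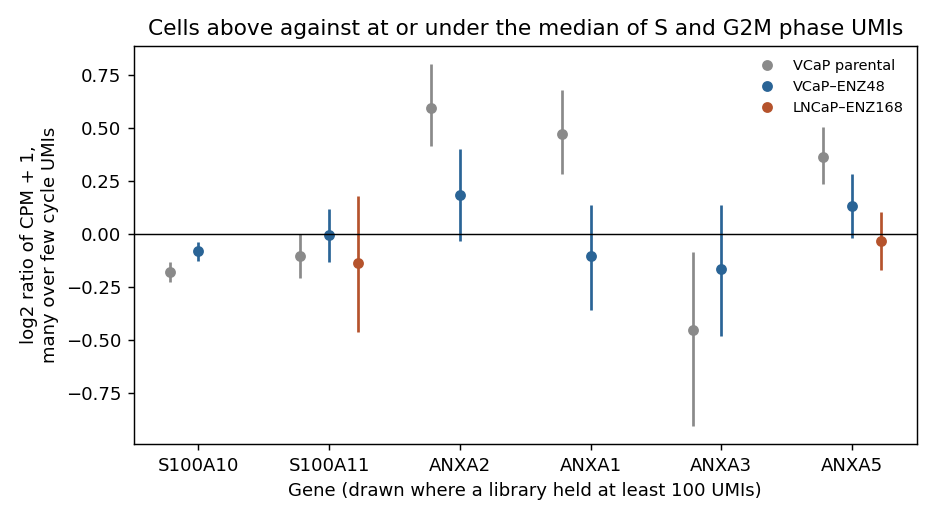
Log2 ratio of CPM + 1 between cells above and cells at or under their library's median of S and G2M phase UMIs, drawn where a library held at least 100 UMIs of the gene, with 95% counting intervals. In VCaP parental, ANXA2 (0.60), ANXA1 (0.47) and ANXA5 (0.37) lie above 0 and S100A10 (−0.18) and ANXA3 (−0.45) below it.

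Depth per cell moved with some of these values. Between VCaP–ENZ48 cells above and at or under the median depth (20777 against 5891 UMIs), ANXA2 had 47.7 and 72.4 CPM (−0.59, −0.83 to −0.37) and S100A11 169.3 and 147.9 CPM (0.19, 0.04 to 0.35). The same split in VCaP parental (23398.5 against 14257 UMIs) gave 48.4 and 47.4 CPM for ANXA2 and 47.2 and 38.0 CPM for ANXA1 (0.31, 0.10 to 0.53). S100A10 differed little by depth, with ratios of −0.07 in VCaP–ENZ48 and 0.00 in VCaP parental. The part of depth in the other results was not tested.

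S100A10 varied more from cell to cell in VCaP–ENZ48 than in VCaP parental. The middle thinned cell held 2 UMIs in VCaP–ENZ48 and 1 in VCaP parental, the cell at the 90th percentile 5 and 3, and the highest 11 and 7. The variance of thinned UMIs over their mean, which is 1 where cells differ by sampling alone, was 1.49 in VCaP–ENZ48 and 1.12 in VCaP parental. Over genes of at least 10 CPM the median of this measure was 1.04 and 1.02 and the 95th percentile 1.24 and 1.18. S100A10 was above the 95th percentile in VCaP–ENZ48 and under it in VCaP parental. For the other genes for which it was computed, it lay between 0.974 and 1.20.

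**Figure D5:**
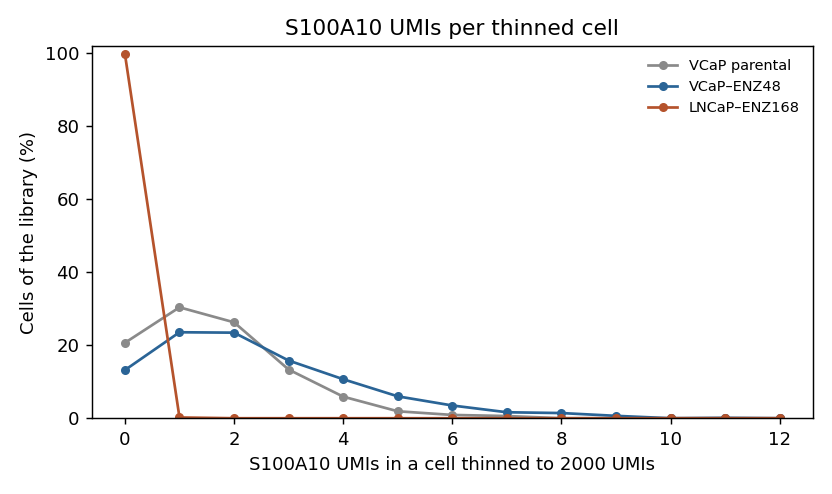
Share of cells (%) holding each number of S100A10 UMIs after thinning to 2000 UMIs per cell. No UMI was found in 99.8% of LNCaP–ENZ168 cells, 20.7% of VCaP parental cells and 13.2% of VCaP–ENZ48 cells, and the VCaP–ENZ48 curve reaches 11 UMIs.

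The genes did not rise and fall together from cell to cell by much. Over 947 VCaP–ENZ48 cells the highest Pearson r between members was 0.24, for S100A10 and S100A11, and over 997 VCaP parental cells it was 0.15, for S100A10 and ANXA1. For S100A10 and ANXA2 it was 0.13 and 0.12. These values come from sparse counts in cells of 1 library and differing depth, and correlations this weak are no finding. Other genes were compared with S100A10, S100A11 and ANXA5 only, the members at 50 CPM or more in both VCaP libraries. Among 2405 genes at that level, none reached r of 0.2 with any of these members in both libraries. The nearest was MYL6 with S100A10 (0.19 in VCaP parental and 0.28 in VCaP–ENZ48). The remaining members were not searched. At the level of the single thinned cell, the median number of the 8 genes detected was 1 in VCaP parental, 2 in VCaP–ENZ48 and 0 in LNCaP–ENZ168, and 10.8%, 6.76% and 51.9% of cells had none.

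LNCaP–ENZ168 was then set against each VCaP library. Both comparisons share LNCaP–ENZ168, so their values are given side by side and are no independent support for each other. Against VCaP–ENZ48, 6 of the 8 genes were 2-fold or more lower and 1 higher, where 11.1% of 8854 genes were lower and 35.5% higher. Against VCaP parental the counts were also 6 and 1, where 10.8% of 8526 genes were lower and 33.6% higher. With TMM scaling the shares were 17.2% lower and 17.3% higher against VCaP–ENZ48, and 26.4% and 12.4% against VCaP parental. The shares cover genes with a mean of 10 CPM or more, as had 6 of the 8 genes against VCaP–ENZ48 by the main scaling. Of these 6, 5 were lower and 1 higher. Against VCaP parental 5 had such a mean, of which 4 were lower and 1 higher. Since these contrasts chose the genes, the counts are a description only.

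The median log2 ratio of the 8 genes was −4.02 against VCaP–ENZ48 and −3.01 against VCaP parental, or −4.51 and −3.68 with genes at 0 set to their bound. The median of all genes was 0.65 and 0.57. S100A10 was 1087-fold lower than in VCaP–ENZ48 (528 to 2705) and 722-fold lower than in VCaP parental (350 to 1795). From its single LNCaP–ENZ168 UMI, ANXA2 had a ratio of 334-fold lower (59.7 to 13199) and 303-fold lower (54.3 to 11998). ANXA1 was 27.2-fold lower (14.7 to 57.0) and 27.8-fold lower (15.02 to 58.1). These 3 genes and S100A11, at 3.08-fold lower (2.75 to 3.46) and 2.88-fold lower (2.57 to 3.23), kept that direction, and stayed past 2-fold, under every setting tried.

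Against the floor of 3 UMIs in LNCaP–ENZ168, S100A6 was at least 30.3-fold lower than in VCaP–ENZ48 and at least 9.49-fold lower than in VCaP parental. ANXA3 was at least 58.7-fold and at least 22.5-fold lower. These bounds take the VCaP counts as exact, and the 95% counting intervals of the log2 ratios of CPM ended nearest 0 at −4.61 and −2.92 for S100A6 and at −5.57 and −4.18 for ANXA3. S100A4 had log2 ratios of 0.32 (−1.04 to 2.48) and 0.37 (−0.85 to 2.49), intervals too wide for a direction.

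ANXA5 was 2.57-fold higher than in VCaP–ENZ48 (2.40 to 2.75) and 3.02-fold higher than in VCaP parental (2.83 to 3.23), but it fell under 2-fold with TMM scaling (log2 ratios 0.82 and 0.77) and with median-of-ratios scaling (0.86 and 0.86). Relative to the median of all genes its log2 ratios were 0.70 and 1.01. TMM scaling shifted all genes by −0.55 and −0.85 at the median, scaling by median-of-ratios by −0.51 and −0.75, and the total without mitochondrial and ribosomal protein genes by −0.28 and −0.12. Among cells with few S and G2M phase UMIs, ANXA5 kept ratios of 1.38 (1.27 to 1.504) and 1.85 (1.69 to 2.04). In the same cells S100A11 had −1.56 and −1.56, and S100A10 had 3 UMIs in LNCaP–ENZ168 against 15522 and 4227.

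The rest of both families was read from lists of the other genes. Of 17 other genes (S100 genes and S100PBP, which binds S100P), 10 were in the files and 0 reached 50 CPM. S100A13, which takes part in the release of growth factors without a signal peptide, was the 1 of the 17 past 2-fold between the VCaP libraries, with 287 UMIs in VCaP parental and 472 in VCaP–ENZ48 (log2 ratio of CPM + 1 of 1.11, 0.95 to 1.38), although it fell to 0.84 with TMM scaling. It had 121 UMIs in LNCaP–ENZ168. S100Z had 104 UMIs in VCaP parental, 94 in VCaP–ENZ48 and 0 in LNCaP–ENZ168, and S100A7 (psoriasin) had 0, 0 and 10 UMIs. They were the 1 lower and the 1 higher of the 17 in LNCaP–ENZ168 against either VCaP library. Over all genes 11.1% were lower and 35.5% higher against VCaP–ENZ48, and 10.8% and 33.6% against VCaP parental. Between the VCaP libraries 8.19% were 2-fold higher. Those shares cover genes with a mean of 10 CPM or more, as had 2 of the 17 in each comparison. S100Z and S100A7 were not among them, and nothing is read from these counts.

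Of 9 other annexins, 7 were in the files, and on the scale of CPM + 1 used for these counts 0 were past 2-fold between the VCaP libraries. Over all genes with a mean of 10 CPM or more, as had 3 of the 9, 8.19% were 2-fold higher and 6.77% lower. Without the added 1 CPM, ANXA6 was 2.13-fold and ANXA9 7.28-fold (2.08 to 39.0) higher in VCaP–ENZ48 and ANXA10 4.89-fold lower (1.45 to 25.7), the last 2 from 3 UMIs in 1 of the libraries. In LNCaP–ENZ168, 4 of the 9 were 2-fold higher than in either VCaP library, where 35.5% (against VCaP–ENZ48) and 33.6% (against VCaP parental) of all genes were, and nothing is read from so small a list. Those shares again cover genes with a mean of 10 CPM or more. Against either library 4 of the 9 had such a mean, of which 3 were higher. ANXA11 had 122 CPM in LNCaP–ENZ168, 23.1 in VCaP parental and 29.4 in VCaP–ENZ48, and ANXA6 had 51.6, 6.35 and 13.6. ANXA4 had 50.4, 11.02 and 20.3 CPM, and ANXA9 had 17.9, 0.154 and 1.12. With TMM scaling ANXA11, ANXA6 and ANXA9 stayed past 2-fold against both libraries (lowest log2 ratio 1.34, for ANXA6 against VCaP–ENZ48), and ANXA4 fell to 0.75 against VCaP–ENZ48. ANXA10, with 0, 20 and 3 UMIs, was the 1 annexin of this list past 2-fold lower, against VCaP parental, where 10.8% of all genes were. Its mean there was 0.512 CPM, so it was not among the genes of that share. ANXA7 had 317, 226 and 158 CPM, with a log2 ratio of −0.52 (−0.59 to −0.44) between the VCaP libraries.

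Binding partners and receptors were the last list, of 14 genes with 12 in the files. AHNAK, a large scaffold bound by the S100A10 and ANXA2 complex, had 7.02 CPM in VCaP parental, 17.8 in VCaP–ENZ48 and 9.66 in LNCaP–ENZ168. TRPV6, a calcium channel carried to the membrane by the same complex, had 5.89, 28.8 and 11.2 CPM. They were the 2 of 14 past 2-fold higher between the VCaP libraries, where 8.19% of all genes were, with log2 ratios of 1.23 (1.04 to 1.66) and 2.11 (1.99 to 2.60), and AHNAK fell to 0.98 with TMM scaling while TRPV6 stood at 1.87. That share covers genes with a mean of 10 CPM or more, as had 5 of the 14, AHNAK and TRPV6 among them. Nothing is read from this count. The genes of plasminogen activation were low: PLAU had 0, 1 and 0 UMIs and PLAT 6, 3 and 1, in the same order.

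In LNCaP–ENZ168 the partners went in different directions. PLGRKT, a plasminogen receptor, had 402 CPM in LNCaP–ENZ168, 33.2 in VCaP parental and 29.7 in VCaP–ENZ48, and MYH9, the myosin heavy chain bound by S100A4, had 80.3, 23.5 and 28.1. They were the 2 of 14 past 2-fold higher in LNCaP–ENZ168 against either VCaP library, where 35.5% and 33.6% of all genes were higher, and with TMM scaling MYH9 fell to 0.96 and 0.93. TRPV6 was the 1 past 2-fold lower against VCaP–ENZ48 (−1.28, −1.74 to −0.99), AHNAK stood at −0.82 and at −1.30 with TMM scaling, and 0 were lower against VCaP parental. Over all genes 11.1% were lower against VCaP–ENZ48 and 10.8% against VCaP parental. These shares cover genes with a mean of 10 CPM or more, as had 5 of the 14 against VCaP–ENZ48 and 3 against VCaP parental. PLGRKT and MYH9 were among them in both comparisons, and TRPV6 against VCaP–ENZ48. Nothing is read from these counts. CACYBP, the calcyclin-binding protein, had 164 CPM in LNCaP–ENZ168, 165 in VCaP parental and 101.6 in VCaP–ENZ48.

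Genes within 250000 bases were looked at after the values of the members had been seen, and those of S100A10, ANXA1, ANXA2 and ANXA5 are given. Of the 5 neighbours of S100A10 at 10 CPM or more in LNCaP–ENZ168 or VCaP–ENZ48, S100A11 was the 1 past 2-fold lower in LNCaP–ENZ168, and THEM4, the nearest of the rest, had 75.6 CPM in LNCaP–ENZ168, 51.3 in VCaP parental and 77.3 in VCaP–ENZ48. The other 4 were within 2-fold of VCaP–ENZ48. Over all genes 11.1% were 2-fold lower against VCaP–ENZ48, and S100A11 is itself a member, so nothing is read from this count. ANXA1 had 1 neighbour in this window, ALDH1A1, a retinaldehyde dehydrogenase, which had 0.158, 82.4 and 41.3 CPM. ICE2 next to ANXA2 had 74.8, 71.8 and 63.0 CPM. For ANXA5, the 3 neighbours at that level, EXOSC9, CCNA2 and BBS7, were past 2-fold higher in LNCaP–ENZ168 than in VCaP–ENZ48, as were 35.5% of all genes, with log2 ratios of CPM + 1 of 1.84, 2.28 and 1.45 that were not recomputed under other scalings, and against VCaP parental they had 0.55, −1.22 and 0.98.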

How the data were processed

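Drop-seq libraries of LNCaP–ENZ168, VCaP parental and VCaP–ENZ48 were analysed, 1 per group. STAR and the Drop-seq tools were run by the authors on GRCh38, and each deposited file holds UMI counts, not normalized, by gene and barcode. The members and lists were chosen with earlier results of these data known.

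Cells needed 300 genes, 500 UMIs and a mitochondrial share of no more than 25%, and doublets were not removed. UMIs were summed over the kept cells and scaled to CPM, and log2 ratios were taken of CPM + 1. The 95% intervals are exact Poisson for levels, exact conditional for ratios and Clopper-Pearson for shares. A count of 0 was given a limit of 3 counts. With 1 library per group no test was made, and past 2-fold was the fixed rule of size. By plan, the genes named were the 8 members, their pseudogenes, the cell type markers and genes of 3 lists at 50 CPM or more in any library. The lists were other S100 genes, other annexins, and partners and receptors. Genes with r of at least 0.2 with a member in both VCaP libraries were also to be named. That last search covered only the members at 50 CPM or more in both VCaP libraries. Some others were named after their values were seen: neighbours, MYL6, PLAU and PLAT. So were genes of the 3 lists past 2-fold but under 50 CPM in every library: S100A13, S100Z, S100A7, ANXA9, ANXA10, AHNAK and TRPV6. S and G2M genes came from Seurat. Some markers and motifs are not reported here.

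Alternatives covered the cell filter, deep barcodes, barcode ending, cell weights, scaling, pseudocount, expression minimum, thinning and the cycle threshold. Steps were tested on simulated data. Gene positions came from Gencode 44, later than the version the authors used, and upstream windows from RefSeq (8 of 8 matched by symbol). Python 3.11.15 with numpy 2.4.6, scipy 1.17.1, pandas 2.3.3 and matplotlib 3.10.9, and R 4.3.3 with edgeR 4.0.16 and Seurat 5.3.0, were used.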

Additional observations from a re-analysis of the deposited data

How the results depend on the processing

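No paired analysis was possible because there was a single library in each group, and no library could be left out. The number of members past 2-fold higher in VCaP–ENZ48 over VCaP parental was 1 with barcodes ending in a base and 0 with a pseudocount of 10 CPM, against 2. Past 2-fold higher in LNCaP–ENZ168 it was 0 with TMM and 0 with median-of-ratios scaling against either VCaP library, instead of 1. The other 54 of 60 such counts stayed within 1.5 times, and no member past 2-fold changed its direction. The log2 ratio of S100A6 in LNCaP–ENZ168 over VCaP parental was −0.54 with a pseudocount of 10 CPM, against −2.46 by the main setting. It thus came inside 2-fold, a change made by the pseudocount itself. The share of all genes 2-fold higher in VCaP–ENZ48 was 12.8% at a minimum of 1 CPM and 5.03% at 50 CPM, and the share lower in LNCaP–ENZ168 against VCaP–ENZ48 was 18.9% at 1 CPM.

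Scaling of the other lists was varied after seeing the data. For VCaP–ENZ48 over VCaP parental, other S100 genes past 2-fold higher numbered 0 with TMM and 0 with median-of-ratios scaling, partners and receptors 1 with TMM, and other annexins 2 without mitochondrial and ribosomal protein genes. For LNCaP–ENZ168 over VCaP–ENZ48, other S100 genes lower numbered 2 and partners and receptors lower 2 with TMM, with median-of-ratios and without mitochondrial and ribosomal protein genes, and partners and receptors higher numbered 1 with TMM and 1 with median-of-ratios. For LNCaP–ENZ168 over VCaP parental, partners and receptors higher numbered 1 with TMM. The cause of these changes was not tested. Of the log2 ratios of single members, 150 of 240 under other settings stayed within the counting interval. With 1 library per group, variation between cultures is unknown, and genes at 10 UMIs or fewer in a library (S100A4 in all, and S100A10, S100A6, ANXA2, ANXA1 and ANXA3 in LNCaP–ENZ168) are limited by counting.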
